A study of Mus musculus with 28 samples.

Results

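Atf3 is a stress- and injury-induced transcription factor of the bZIP family. It is low in resting sensory neurons, is switched on when their axons are cut, and can also be induced when ganglia are dissociated. Its known partner Jun belongs to the same bZIP class, and the pair takes part in a programme of growth-associated genes, among them the small proline-rich protein Sprr1a, the neuropeptide galanin and the small heat shock protein Hspb1. The comparison described here asked which genes moved with Atf3 among libraries of uninjured mouse sensory neurons, in which no nerve had been cut.

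RNA was sequenced from neurons of adult AdvGFP mice, a transgenic stock (STOCK Tg(Avil-EGFP)QD84Gsat/Mmucd) in which the advillin promoter drives EGFP in sensory neurons. Ganglia were dissociated with enzymes, live GFP+ cells were sorted by FACS, 2 mice of 1 sex were pooled into each library, and the labels name satellite glial cells as a contaminant of the sort. The series held 28 libraries, 22 from naive mice and 6 made from neurons bead-purified 8 days after partial sciatic nerve ligation (SNL) in C57BL/6J mice. All of the naive mice carried the transgene and none had been injured or treated.

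Of the 22 naive libraries, 4 were set aside by library number (male 2, male 10, female 2 and female 11). The members were chosen by measured Atf3: the other 18 libraries were ranked by Atf3 level in FPKM (sequenced fragments scaled to transcript length and library size), and the 6 highest were set against the 6 lowest, so that 12 libraries entered the comparison. The high-Atf3 libraries were female 9, female 5, male 4, male 8, female 3 and female 7. The low-Atf3 libraries were female 8, male 11, male 6, female 10, male 5 and male 9. Because the groups were formed from a value measured in these libraries, they are not treatment groups, and a p-value below says only whether another gene's level went with the Atf3 rank. The labels name no sorting day, so a shared day of preparation within either group cannot be told apart from the rank.

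Atf3 itself is given as a description, since it chose the groups. Its FPKM ran from 29.1 through a median of 88.4 to 166.1 in the high libraries and from 1.71 through 5.58 to 6.63 in the low libraries. The 6 libraries between them ran from 7.06 to 12.9. The upper boundary of the grouping therefore fell in a gap, between 29.1 in female 7 and 12.9 in male 1, whereas the lower boundary separated near-equal values, 7.06 in female 4 and 6.63 in female 8. In the separately normalised table of the 6 SNL libraries Atf3 ran from 62.3 to 275.6 FPKM, a range that the 4 highest naive libraries also reached.

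The libraries were checked on measures that the ranking did not use. The high libraries held 26.7 to 38.5 M input reads (mean 34.2 ± 4.33, SD, n = 6) and the low libraries 26.8 to 32.0 M (29.3 ± 1.85, n = 6), with a two-sided exact permutation p of 0.0325 and an adjusted p of 0.121 over 4 measures. The RNA integrity number was 8.28 ± 0.981 in the 5 high libraries that had one and 9.08 ± 0.556 in the 6 low libraries (exact permutation p = 0.123, adjusted p = 0.165). The uniquely mapped share differed by 0.261 percentage points (exact permutation p = 0.894, adjusted p = 0.894). None of the 4 measures passed the adjusted threshold. The high group held 4 female and 2 male libraries, and the low group 2 female and 4 male libraries.

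The labelled tissue was checked against its markers. The summed FPKM of 19 trunk Hox genes, which are expressed in spinal but not in trigeminal ganglia, was 134.5 to 192.4 in the high libraries and 122.7 to 189.4 in the low libraries, and 0.402 to 0.795 in the 4 libraries set aside. Of 17 pan-neuronal genes tested, Stmn2, a neuronal stathmin, had a mean of 1940 ± 400.3 FPKM in the high and 2044 ± 602.8 in the low libraries, and Uchl1, a neuronal deubiquitinase, 1728 ± 170.0 and 1967 ± 838.6. The low library male 11 stood apart in Avil and Pou4f1 of the same list, chosen after their values were seen. Avil, the advillin gene, was at 172.1 FPKM in male 11, 770.2 to 1118 in the other low and 711.3 to 930.2 in the high libraries. Pou4f1 was at 68.1, 253.2 to 385.3 and 192.8 to 437.5 FPKM. Defining lymphocyte markers were not tested because none of the 10 reached the expression minimum.

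A single gene passed the test. Sprr1a, which is induced in axotomised sensory neurons and promotes axon outgrowth, was higher in the high-Atf3 libraries by 7.20 ± 0.613 (SE) on the log2(FPKM + 1) scale, with an adjusted p of 8.92e-05 (limma, Benjamini-Hochberg over 12479 genes). Its FPKM was 28.8 at the lowest, 285.0 at the median and 570.9 at the highest in the high group, and 0.108, 0.311 and 0.376 in the low group. Every high library stood far above every low one, and the ratio of the group means in FPKM was 1044. The gene accounts for the 0.00801% of genes called in the higher direction, and 0% of genes were called lower.

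Of the 18 libraries none had Atf3 between 12.9 and 29.1 FPKM, so a step and a slope of Sprr1a cannot be told apart. In the 6 libraries between the groups, whose Atf3 overlapped neither group, Sprr1a ran from 0.106 to 0.554 FPKM. This covered the low group's range. Of the 4 libraries set aside, 3 lay between 0.152 and 0.306 FPKM and male 2 reached 5.52. Within the high group the order followed Atf3 only in part: female 9, which had the most Atf3, held 216.4 FPKM of Sprr1a, female 5 held 570.9 and male 4 held 551.5. Female 3 and female 7, the pair with the least Atf3 of the 6, had 28.8 and 59.7. In the SNL table Sprr1a ran from 339.0 to 916.3 FPKM, so that 3 of the naive high libraries lay inside the range seen after nerve ligation.

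**Figure D1:**
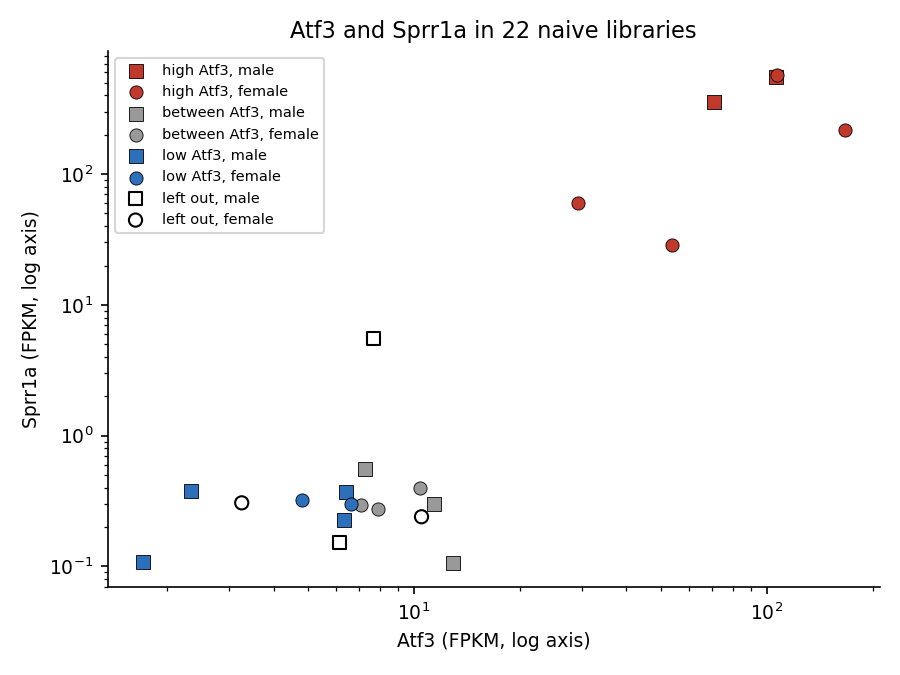
Atf3 (x axis, FPKM, log scale) against Sprr1a (y axis, FPKM, log scale) in each of the 22 naive libraries, with squares for male and circles for female libraries. The 6 high-Atf3 libraries sit between 28.8 and 570.9 FPKM of Sprr1a, and the other 16 between 0.106 and 5.52.

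The Sprr1a locus lies on chromosome 3 at 92483952 to 92485895 (mm10, minus strand). The 250 bases before the RefSeq transcription start (GRCm38.p6, chr3:92485882-92486131, minus strand) are shown because this is the promoter of the one gene that passed, with the letters of the AP-1 motif, the site class that Jun-containing bZIP dimers bind, in capitals.
Sprr1a promoter: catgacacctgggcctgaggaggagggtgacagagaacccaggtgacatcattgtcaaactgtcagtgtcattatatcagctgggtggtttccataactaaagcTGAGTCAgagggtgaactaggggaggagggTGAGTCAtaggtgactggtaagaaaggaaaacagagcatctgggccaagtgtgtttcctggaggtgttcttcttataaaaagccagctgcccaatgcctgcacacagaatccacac
The motif TGANTCA occurred at 2 places in this window, starting 146 and 116 bases before the start, and the cyclic AMP response element TGACGTCA at 0. Both patterns read the same on either strand, and with 0 matches of the latter no matches overlapped. Over 32851 RefSeq promoters of the same length, 6.75% held at least 1 TGANTCA and 1.55% at least 1 TGACGTCA. Of the 16 genes called either here or in the regression on Atf3 described below, 12 had a promoter entry, of which 1 (Sprr1a) held TGANTCA and 1 (Fscn1, an actin-bundling protein) held TGACGTCA. A match in letters is a description of the sequence and not evidence of binding.

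Other small proline-rich genes near Sprr1a were too low to be tested and are given as listed, having been chosen after their values were seen. Sprr1b was listed at 0 in 4 of the 6 high libraries and at 1.68 FPKM in male 4. Sprr2f was listed at 0 in 4 of the 6 high libraries and at 1.29 and 1.48 FPKM in male 4 and male 8. Both were listed at 0 in the 6 low and the 6 between libraries. Members of this family resemble each other, and the aligner kept uniquely mapped reads, so these values are uncertain.

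No other gene passed the adjusted threshold, and the differences that follow are given as values. An unadjusted p under 0.05 was found with a positive difference for 697 genes (5.59% of genes tested) and with a negative one for 206 (1.65%). The counts were 897 and 373 without male 11, 783 and 320 without male 5, and 387 and 115 with RNA integrity as a covariate, a fit that leaves out male 8. In 54 genes (0.433%) all 6 high libraries stood above all 6 low ones, and in 14 (0.112%) all stood below. The median difference over the 12479 genes was 0.06 on the log2(FPKM + 1) scale. It was -0.019 with quantile normalisation and -0.0029 with median-of-ratios scaling. The difference was positive in 7315 of the 12479 genes and negative in 5164. Counts of positive members in the lists below are to be read beside this share.

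Next in order of p was Camk1, a calcium/calmodulin-dependent kinase. Camk1 FPKM was 32.3, 47.8 and 57.3 (lowest, median, highest) in the high and 10.7, 17.2 and 21.1 in the low libraries. The groups did not overlap, with a log2 difference of 1.37 ± 0.212 and an adjusted p of 0.0730 (limma). Fam210b, a mitochondrial membrane protein, was also without overlap, at 4.69 to 12.1 against 0.611 to 3.11 FPKM (log2 difference 1.76 ± 0.34, adjusted p = 0.138). Ccl21a, a chemokine whose near-identical copies cannot be separated in short reads, ran from 17.7 to 110.0 against 0.734 to 17.1 FPKM (log2 difference 2.91, adjusted p = 0.189).

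Ndfip1, an adaptor for Nedd4 ubiquitin ligases, differed from these in that its groups overlapped. Its FPKM was 56.7 at the lowest, 311.8 at the median and 501.3 at the highest in the high group and 43.2, 52.3 and 74.3 in the low group (log2 difference 2.18, adjusted p = 0.192). The lowest of the high libraries was male 4, which sat inside the low range, while the other 5 were at 203.6 or more. Among the between libraries female 1 and male 7 held 182.6 and 392.02 FPKM of Ndfip1, and the remaining 4 held 55.8 to 66.4. Ndfip1 thus split the 18 libraries into a low and a high set that coincided only in part with the Atf3 groups, and Sprr1a was below 0.6 FPKM in female 1 and male 7.

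The smallest p-values in the negative direction belonged to Tmem35, Zfx, 1810020O05Rik, Paqr5 and Nfkb1. Tmem35, a chaperone of nicotinic receptors, had 5.25, 8.51 and 13.3 FPKM in the high and 12.9, 17.7 and 24.6 in the low libraries (log2 difference -1.04 ± 0.218, adjusted p = 0.208). The groups overlapped by the single pair of female 7 and female 10. For Zfx, an X-linked zinc finger factor, the high libraries were at 0.392 to 2.29 and the low ones at 2.83 to 4.51 FPKM (log2 difference -1.15, adjusted p = 0.210). Paqr5, a membrane progestin receptor, ran from 59.5 to 119.3 in the high and from 128.5 to 187.6 FPKM in the low libraries (log2 difference -0.78, adjusted p = 0.278). Nfkb1, the p105/p50 NF-kB subunit, ran from 0.927 to 2.69 and from 3.47 to 5.68 FPKM (log2 difference -0.90, adjusted p = 0.287), and 1810020O05Rik had a log2 difference of -1.13 (adjusted p = 0.278). In Zfx, Paqr5, Nfkb1 and 1810020O05Rik every high library lay below every low one.

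The 5 genes whose rank order over the 18 libraries was most like that of Atf3 were Mtx2, Fam210b, Trappc6b, Rnf115 and Wnt9a, with Spearman rho of 0.81, 0.81, 0.81, 0.80 and 0.78. These values are descriptive, and the 18 libraries share their protocol. Mtx2, an outer mitochondrial membrane import factor, had a log2 difference of 1.39 (adjusted p = 0.192). Trappc6b, a vesicle tethering subunit, ran from 46.6 to 63.0 FPKM in the high and 20.2 to 38.9 in the low libraries (log2 difference 0.76, adjusted p = 0.274). Rnf115, an E3 ubiquitin ligase, had a log2 difference of 0.58 (adjusted p = 0.498), and Wnt9a, a secreted Wnt ligand, of 1.00 (adjusted p = 0.471). For Sprr1a the rho was 0.68, lower than for these 5.

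**Figure D2:**
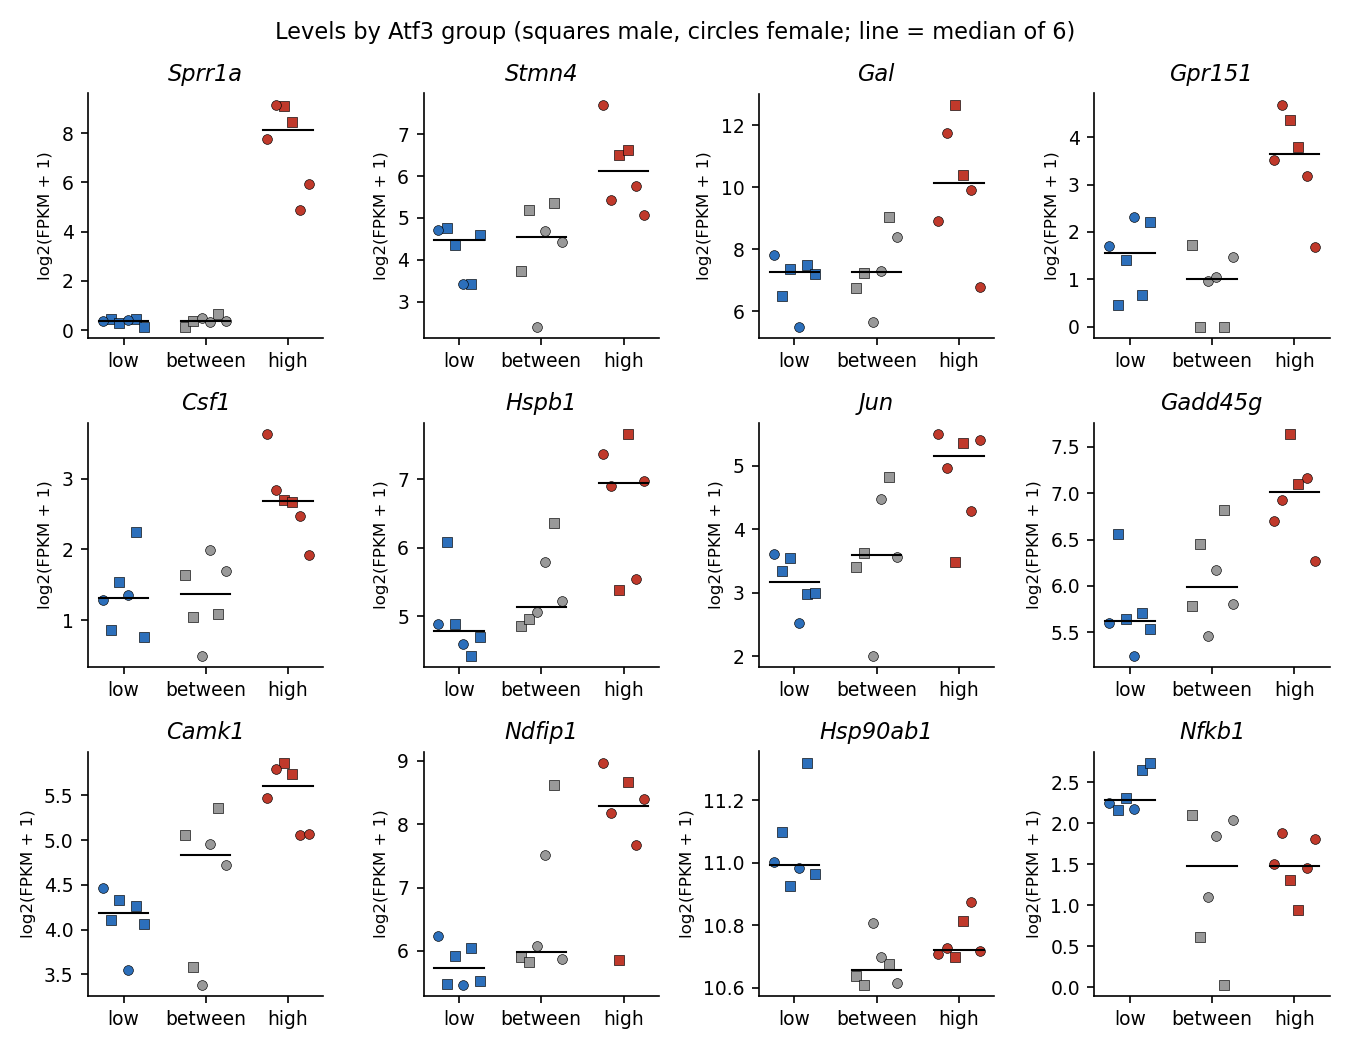
Level of 12 genes (y axis, log2(FPKM + 1), with a separate scale for each panel) in the low, between and high Atf3 libraries, with squares for male and circles for female libraries and a line at the median of 6. Sprr1a is near the floor in both the low and the between groups, whereas Ndfip1 and Jun reach high-group levels in some between libraries and Hsp90ab1 is highest in the low group.

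Genes of the axon regeneration response were then examined as a list of 34 effectors, compiled with earlier results of these data known, of which 30 were expressed enough to be tested. One, Sprr1a, was called, against 0.00801% of all genes. The difference was positive in 28 members and negative in 2, and 19 members had a positive difference with unadjusted p under 0.05, against 5.59% of all genes. These counts are descriptive, because a gene could meet the expression minimum through 1 group alone. Sprr1a, Ecel1 and Cckbr were under 1 FPKM in every low library, so they entered only through the high libraries and their sign was fixed in advance. The median difference was 0.93 on the log2 scale, against 0.06 over all genes. The list's summed FPKM ran from 1220 to 9010 in the high and from 1130 to 1616 in the low libraries, so that the groups overlapped in the sum. The genes named from this list below, apart from Sprr1a, Gal and Gap43, were chosen after their values were seen.

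Among the secreted and signalling members, galanin (Gal), a neuropeptide induced by axotomy, had the widest range. Its FPKM was 109.3, 1146 and 6493 in the high and 44.5, 154.8 and 225.2 in the low libraries (log2 difference 3.09 ± 0.767, adjusted p = 0.298, limma). Of the high libraries, 5 stood above every low library and female 7 stood among them. Csf1, which injured sensory neurons release to act on spinal microglia, had 2.79, 5.45 and 11.4 FPKM against 0.700, 1.50 and 3.75 (log2 difference 1.37, adjusted p = 0.242). Its groups overlapped only through female 7 and male 5.

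Nts, encoding neurotensin, ran from 5.63 to 525.0 FPKM in the high and 0.156 to 33.6 in the low libraries (log2 difference 2.33, adjusted p = 0.648), and female 9 held the 525.0. Fgf3, a fibroblast growth factor, was between 1.17 and 2.15 FPKM in female 9, female 5, male 4 and male 8 and listed at 0 in female 3 and female 7 (log2 difference 0.96, adjusted p = 0.531). Npy, the peptide that large sensory neurons make after axotomy, was listed at 0 in 3 of the 6 high and 4 of the 6 low libraries, and reached 15.2 FPKM in female 9.

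Receptors and membrane enzymes of the same list came next. Gpr151, an orphan receptor of sensory neurons, had 2.23, 11.6 and 24.8 FPKM in the high and 0.367, 1.95 and 3.95 in the low libraries (log2 difference 2.08, adjusted p = 0.242). All high libraries but female 7 exceeded the low ones. Ecel1, a membrane metallopeptidase induced by nerve damage, ran from 1.92 to 13.5 FPKM in 5 high libraries, was listed at 0 in female 7 and was at most 0.241 in the low libraries (log2 difference 1.95, adjusted p = 0.321). Cckbr, the gastrin and cholecystokinin receptor, was at 5.08 to 23.1 FPKM in female 9, female 5 and male 4 and at most 0.681 in the other 3 high libraries. Its highest low library was at 0.615 FPKM (log2 difference 1.76, adjusted p = 0.551).

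Cytoskeletal and cell survival genes made up the rest. Stmn4, a stathmin that regulates microtubules, was the other member whose groups did not overlap, with 32.8, 71.3 and 207.5 FPKM in the high and 9.81, 21.4 and 26.3 in the low libraries (log2 difference 1.96 ± 0.406, adjusted p = 0.202). Gap43, a growth cone protein, had a mean of 589.3 ± 161.3 FPKM in the high and 398.6 ± 132.8 in the low libraries, which overlapped (log2 difference 0.58, adjusted p = 0.649). Tubb6, a beta tubulin, had a log2 difference of 1.31 and Gadd45a, a stress sensor that p53 also controls, of 1.15 (adjusted p = 0.406 and 0.348).

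Anxa1, an annexin, was uneven over the high libraries (log2 difference 3.47, adjusted p = 0.534, limma). It was at 219.7, 199.1 and 59.1 FPKM in female 9, female 5 and male 4, and between 0.442 and 0.977 in male 8, female 3 and female 7. No low library exceeded 1.07 FPKM. Nppb, encoding the itch peptide BNP, was the member with the largest negative difference, at -1.71 (adjusted p = 0.815), with 0.0766 to 10.7 FPKM in the high and 0.0563 to 98.8 in the low libraries.

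Set beside the SNL libraries, whose values were normalised in a separate table and come from bead-purified neurons of another strain, the members of the list did not all reach the same level. No test was made across the tables. Gal was at 372.8 to 2248 FPKM after SNL and Stmn4 at 53.5 to 137.5, ranges that the naive high libraries covered. Sox11 was at 8.25 to 37.2 after SNL and at 0.616 to 5.41 in the naive high libraries, without overlap. Npy was at 22.6 to 162.3 FPKM after SNL, above every naive high library.

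Transcription factors known to be induced by axonal injury were examined as a list of 20 without Atf3, of which 17 were tested. None was called. The difference was positive in 12 and negative in 5, against 7315 and 5164 over all genes. A positive difference with unadjusted p under 0.05 was found in 4, against 5.59% of all genes. The median difference was 0.28, against 0.06 over all genes. Jun, the AP-1 subunit that pairs with Atf3 and is needed for axon regrowth, had 10.2, 35.1 and 44.6 FPKM in the high and 4.75, 8.06 and 11.3 in the low libraries (log2 difference 1.67 ± 0.336, adjusted p = 0.202). The lowest high library was male 4, the only one that overlapped with the low group. Sox11, a regeneration-associated factor, had 0.616, 3.42 and 5.41 FPKM against 0.602, 0.847 and 1.25 (log2 difference 1.04, adjusted p = 0.406), with female 7 at the bottom. Arid5a, an RNA-binding factor that stabilises inflammatory transcripts, did not overlap, at 16.3 to 24.1 against 4.71 to 15.8 FPKM (log2 difference 0.77, adjusted p = 0.521).

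The most abundant members of that list were Klf7 and Stat3. Klf7, a Kruppel-like factor of sensory neurons, had a mean of 253.9 ± 60.0 FPKM in the high and 224.4 ± 29.9 in the low libraries (log2 difference 0.15, adjusted p = 0.935). Stat3, which carries cytokine signals from injured axons, had 72.4 ± 12.2 and 64.5 ± 24.0 FPKM (log2 difference 0.28, adjusted p = 0.923).

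Immediate early genes are switched on within minutes by activity or handling, and a list of 40 had 25 tested members. None was called. The difference was positive in 17 and negative in 8, against 7315 and 5164 over all genes. Among the positive ones 7 had an unadjusted p under 0.05, against 5.59% of all genes, and the median was 0.32, against 0.06 over all genes. Jun, Klf6, Myc and Egr1 are counted both here and among the injury transcription factors. Members on either side of zero were present. Junb, an AP-1 subunit, had 9.08, 14.1 and 25.8 FPKM in the high and 0.479, 4.41 and 9.43 in the low libraries (log2 difference 1.65, adjusted p = 0.299), and Dusp1, a phosphatase that switches off MAP kinases, had a log2 difference of 1.43 (adjusted p = 0.360). Fos, by contrast, had 7.30, 28.9 and 116.6 FPKM in the high and 36.1, 53.7 and 78.6 in the low libraries, a log2 difference of -0.62 (adjusted p = 0.872). Egr1, a zinc finger immediate early factor, had a log2 difference of -0.48 (adjusted p = 0.903). The Fos range of the high libraries enclosed that of the low libraries, from male 4 at the bottom to female 7 at the top.

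Gadd45g and Rheb were the most abundant of the tested immediate early genes. Gadd45g, a growth arrest and DNA damage gene, had 76.0, 128.2 and 199.1 FPKM in the high and 36.9, 48.2 and 93.2 in the low libraries (log2 difference 1.25 ± 0.249, adjusted p = 0.202). Only male 11 among the low libraries reached the range of the high group. Rheb, the GTPase that activates mTOR, had means of 110.5 ± 6.05 and 84.5 ± 20.1 FPKM (log2 difference 0.42, adjusted p = 0.636).

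Chaperones of the heat shock response fold damaged proteins. Of 22 tested members none was called. The difference was positive in 14 and negative in 8, against 7315 and 5164 over all genes. The median was 0.05, next to 0.06 over all genes. Hspb1, which protects axotomised neurons, was the exception in size, with 40.6, 122.1 and 202.5 FPKM in the high and 20.5, 26.7 and 66.8 in the low libraries (log2 difference 1.71 ± 0.40, adjusted p = 0.257). Hspb1 is also counted among the regeneration effectors. Male 11 was the only low library within the high range, and male 4 and female 3 the only high libraries below it. Hsp90ab1, the constitutive Hsp90, went the other way, with 1659 to 1875 FPKM in the high and 1945 to 2556 in the low libraries and no overlap (log2 difference -0.29, adjusted p = 0.655). Its between libraries, at 1561 to 1789 FPKM, lay with the high group, so its order did not follow Atf3. Hspa8, the constitutive Hsc70 and the most abundant of the list, had means of 2780 ± 164.7 and 2874 ± 756.0 FPKM (log2 difference 0.01, adjusted p = 0.999).

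The integrated and endoplasmic reticulum stress list had 31 tested members, of which none was called. A positive difference was found in 23 of them, against 7315 of 12479 over all genes. The list median was 0.14, against 0.06 over all genes. Xbp1, a factor of the unfolded protein response, had 22.9, 39.6 and 47.3 FPKM in the high and 8.59, 15.04 and 24.9 in the low libraries (log2 difference 1.20, adjusted p = 0.264). Creld2, a secretory pathway chaperone, had 5.16, 10.3 and 13.2 against 1.25, 3.85 and 5.46 (log2 difference 1.32, adjusted p = 0.264). In both genes the overlap came from male 4. The abundant members Asns, the asparagine synthetase, and Hspa5, the chaperone BiP, had log2 differences of 0.05 and 0.27 (adjusted p = 0.990 and 0.858).

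Smaller stress and inflammatory lists were alike in having no called member. Of 11 tested NF-kB and inflammatory genes, 9 had positive differences (median 0.48, and 0.22 with 9 against 9 libraries). Csf1 and Socs3 of these are also counted among the regeneration effectors. Il6, an interleukin of injured neurons, was at 0.591 to 2.95 FPKM in all 6 high libraries and listed at 0 in 4 of the low ones (log2 difference 1.04, adjusted p = 0.266). Nfkbia, the NF-kB inhibitor, and Ccl2, a monocyte chemokine, had log2 differences of 0.60 and -0.56 (adjusted p = 0.718 and 0.887). Of 14 interferon response genes 11 had positive differences (median 0.53), with Ifi27 at -0.44 and Ifit1 at 1.50 (adjusted p = 0.676 and 0.812).

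Of 12 p53 targets 9 had positive differences (median 0.41, and 0.088 with the 4 highest against the 4 lowest libraries), with Bax, a pro-apoptotic gene, at -0.09 and Cdkn1a, the cell cycle inhibitor p21, at 0.64 (adjusted p = 0.973 and 0.730). Gadd45a and Cdkn1a of this list are also counted among the regeneration effectors. The 16 oxidative stress genes had a median of 0.02, and Sod1 and Txn1, both antioxidant enzymes, had log2 differences of 0.12 and -0.28 (adjusted p = 0.966 and 0.892).

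**Figure D3:**
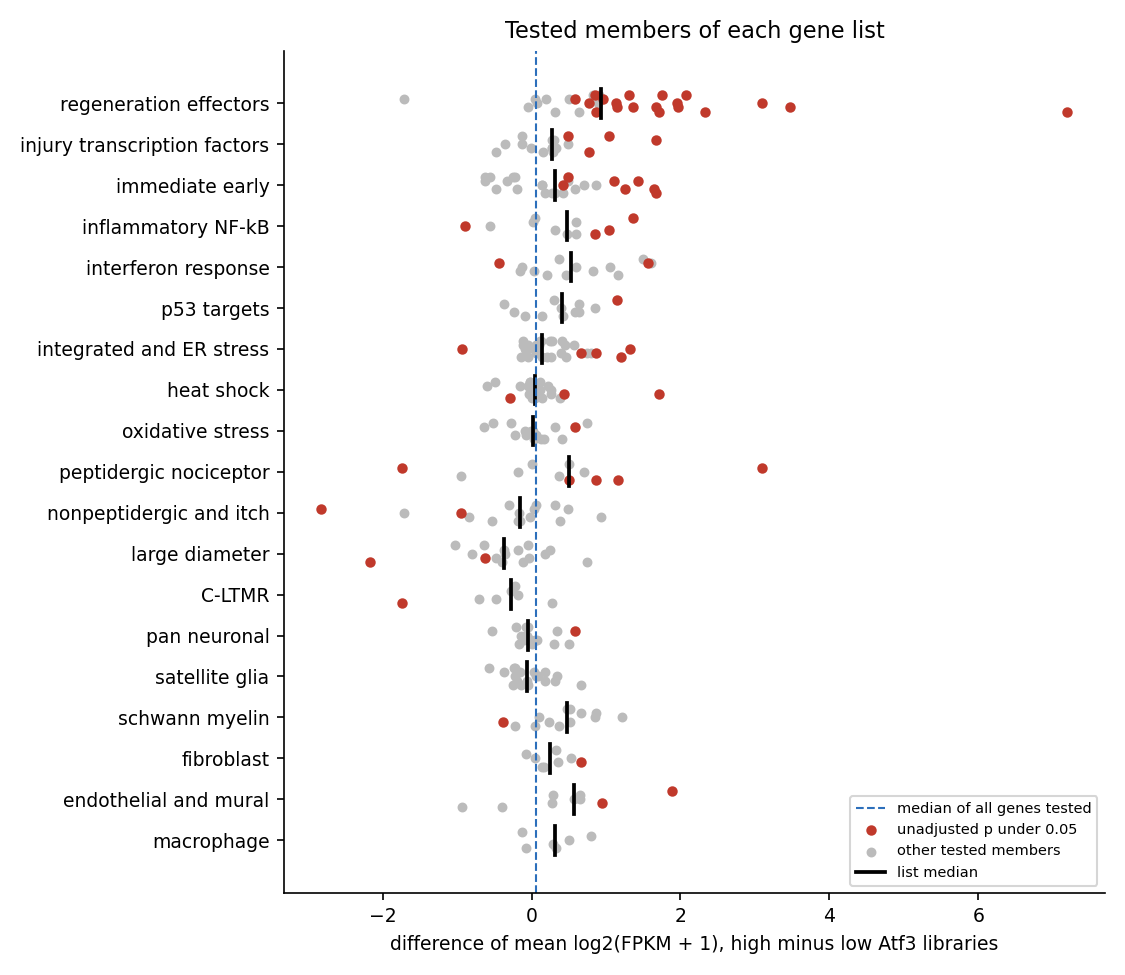
Difference of the group means (x axis, log2(FPKM + 1), high minus low Atf3 libraries) for each tested member of 19 gene lists, in red where the unadjusted p was under 0.05, with the list median as a black bar and the median of all genes as a dashed line. The regeneration effector list has a median of 0.93, while the heat shock, pan neuronal and satellite glia lists lie at 0.05, -0.05 and -0.06.

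Subtype markers were read for whether the 2 groups held the same kinds of neuron. In bulk libraries fewer cells of a type and less RNA per cell cannot be told apart. None was called. Of 11 peptidergic nociceptor genes 8 had positive differences (median 0.50), against 7315 of 12479 over all genes. The abundant neuropeptide genes Calca and Tac1 were at 0.37 and 0.70 (adjusted p = 0.860 and 0.779) and Trpv1, the capsaicin receptor, at 1.16 (adjusted p = 0.678). Gal and Adcyap1 of this list, at 3.09 and 0.87, are also counted among the regeneration effectors. Th, at -1.75, is also counted among the C-fibre low-threshold mechanoreceptor genes.

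Large diameter neuron genes leaned the other way, with 13 of 16 differences negative (median -0.37). Pvalb, a calcium buffer of proprioceptors, had 2.00, 4.12 and 31.8 FPKM in the high and 1.91, 25.3 and 438.6 in the low libraries (log2 difference -2.17, adjusted p = 0.649), and the groups overlapped widely. Ldhb and the heavy neurofilament Nefh had log2 differences of -0.40 and -0.79 (adjusted p = 0.937 and 0.790).

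Of 16 nonpeptidergic and itch genes 10 had negative differences (median -0.16). Sst, the somatostatin of itch neurons, ran from 0 to 20.0 FPKM in the high and from 0.0950 to 126.6 in the low libraries (log2 difference -2.82, adjusted p = 0.652). The abundant members Mrgprd, a receptor of nonpeptidergic nociceptors, and P2rx3, an ATP-gated channel, had log2 differences of 0.39 and 0.06 (adjusted p = 0.942 and 0.995). Of 7 genes of C-fibre low-threshold mechanoreceptors 6 had negative differences (median -0.27), with Th, their tyrosine hydroxylase, at -1.75 and Gfra2, the neurturin receptor, at -0.18 (adjusted p = 0.681 and 0.969). The 29 tested ion channels and receptors of nociception had a median of -0.02.

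Markers of the other cells a sort could carry are given beside these results. The 20 satellite glial genes summed to 2573 to 8259 FPKM in the high and 2213 to 8177 in the low libraries, and of 19 tested none had an unadjusted p under 0.05 (median -0.06). Apoe and Fabp7, their most abundant genes, had log2 differences of 0.67 and -0.24 (adjusted p = 0.835 and 0.956). With a satellite glial score in the fit Sprr1a kept a difference of 7.19 (adjusted p = 2.97e-04, limma). The 14 Schwann and myelin genes summed to 904.7 to 1701 and 1116 to 2091 FPKM, with 11 of 13 differences positive (median 0.47), and Pmp22 and Mbp, both myelin proteins, were at -0.38 and 0.52 (adjusted p = 0.689 and 0.903).

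The 13 fibroblast genes summed to 31.1 to 96.9 and 24.8 to 67.6 FPKM (median 0.25), with Apod and the matrix gene Dcn at 0.17 and 0.14 (adjusted p = 0.969 and 0.988). The 16 endothelial and mural genes summed to 61.8 to 94.6 and 30.9 to 90.3 FPKM (median 0.56), with Egfl7 and Myl9 at 0.65 and -0.94 (adjusted p = 0.708 and 0.845). Ly6c1, an endothelial surface antigen, ran from 0 to 13.4 FPKM in the high and from 0 to 1.13 in the low libraries (log2 difference 1.89, adjusted p = 0.533). Cldn5, the tight junction protein that defines endothelium, ran from 0 to 3.58 and from 0 to 0.124 FPKM (log2 difference 0.95, adjusted p = 0.624). Their part in the differences above was not tested.

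The 17 macrophage genes summed to 11.7 to 49.2 and 8.14 to 31.7 FPKM (median 0.31 over 6 tested), with Aif1 and H2-Ab1 at 0.33 and -0.13 (adjusted p = 0.890 and 0.994). The 11 erythroid genes summed to 19.8 to 90.8 and 15.3 to 95.1 FPKM (median 0.05 over 3 tested), with Bpgm, an enzyme of red cell glycolysis, at 0.05 (adjusted p = 0.995). Among the Hox genes, Hoxa7 and Hoxb5 were at -0.22 and 0.35 (adjusted p = 0.935 and 0.810).

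Housekeeping genes were read last. The median difference was 0.06 over 77 ribosomal protein genes, with Rpl41 and Rps14 at 0.12 and -0.02 (adjusted p = 0.972 and 0.999), and 0.24 over 13 mitochondrially encoded genes, with mt-Cytb and mt-Rnr2 at 0.25 and 0.05 (adjusted p = 0.931 and 0.994). It was 0.11 over 19 sterol synthesis genes, with Fdps and Hmgcs1 at -0.21 and 0.12 (adjusted p = 0.941 and 0.985).

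Whether the contrast differed between the sexes was tested with an interaction of Atf3 group and sex. No gene was called (0% of 12479), the smallest adjusted p was 0.638 (limma), and 1.78% of genes had an unadjusted p under 0.05. Sprr1a had a difference of 8.45 in male and 6.54 in female libraries (interaction 1.91, p = 0.133 before and 1.00 after adjustment). Of the 30 regeneration effectors, 25 had a positive difference in both sexes, with medians of 1.23 in male and 1.06 in female libraries, and none had an interaction p under 0.05. Over all genes tested in each sex alone the medians were 0.090 in male and 0.011 in female libraries. The share of all genes positive in both sexes was not computed. These are the same libraries that gave the list's differences above, so the count is not a replication. The sexes rest on 2 and 4 libraries a side, so the spread within each is poorly known.

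**Figure D4:**
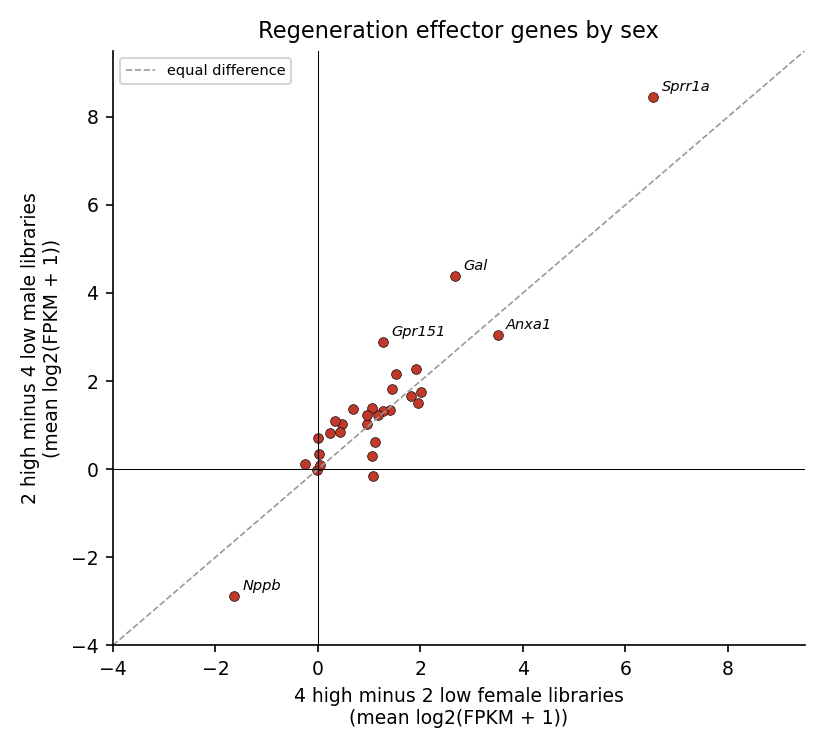
Difference between high and low Atf3 libraries for the 30 tested regeneration effector genes in female (x axis) and male (y axis) libraries, both on the log2(FPKM + 1) scale, with a dashed line where the sexes would be equal. Sprr1a is at 6.54 in female and 8.45 in male libraries, and Nppb is negative in both.

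The choice of groups bore on how many genes were called. In a regression of every gene on log2(Atf3 + 1) over all 18 libraries, 15 genes rose and 1 fell with Atf3 (limma, adjusted p under 0.05). Those that rose were Sprr1a, Trp53i11, Ecel1, Wfdc3, Fam210b, Wt1, Cckbr, Gpr151, Fgf3, Stmn4, Csf1, Gadd45g, Gadd45a, Sez6l and Fscn1, and the one that fell was Tmem35. Of these, Sprr1a, Ecel1, Cckbr, Gpr151, Fgf3, Stmn4, Csf1 and Gadd45a belong to the regeneration effector list. Over all genes, 16 of 13247 were called in this fit. The list was compiled with earlier results of these data known, so the overlap is a description and was not tested. Sprr1a, Ecel1, Cckbr and Wt1 were under 1 FPKM in every low library. They could therefore meet the expression minimum only through libraries with more Atf3. Trp53i11, a p53-inducible gene, ran from 1.83 to 19.6 FPKM in the high and from 0.0437 to 1.33 in the low libraries. Wt1, a zinc finger factor best known from kidney development, was at 0.0233 to 11.1 FPKM in the high libraries and listed at 0 in all 6 low ones.

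With the 9 highest set against the 9 lowest libraries no gene was called, while 272 genes had a positive and 161 a negative difference at unadjusted p under 0.05. Sprr1a then had a difference of 4.76 (adjusted p = 1.00), since 3 between libraries with under 0.6 FPKM joined the high side. With the 4 highest against the 4 lowest, 7 genes were higher and 1 lower, and Sprr1a had a difference of 8.30 (adjusted p = 4.33e-07). Leaving out female 7, the library with the least Atf3 in the high group, gave 7 higher genes, namely Sprr1a, Wfdc3, Camsap3, Camk1, Gal, Fam210b and Gpr151. Without male 4 there were 3 (Sprr1a, Ndfip1 and Jun), and without female 9 or female 10 there were 2.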

How the data were processed

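Per the study's methods the authors aligned reads to mm10 with STAR, keeping uniquely mapped reads, merged lanes with SAMtools and computed FPKM with Cufflinks, with no versions named there. Deposited FPKM values cover 45952 rows, naive and SNL libraries were normalised in separate tables, and 51 gene IDs occupy 121 rows, kept apart. The library kit was unstranded, so overlapping genes cannot be told apart, and an exact 0 may be a failed estimate. RNA integrity, a deposited score per sample, was missing for 1 library. Deposited alignment totals, of other unit (reads), gave depth. The authors' own comparison columns from DESeq2 (fold changes and p-values between the sexes) were not used, and no read counts per gene were analysed here.

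FPKM of at least 1 in at least 3 of 12 libraries was required, log2(FPKM + 1) was tested with limma 3.58.1 (R 4.3.3, intensity trend) and p-values were adjusted by Benjamini-Hochberg over all genes but Atf3, with 0.05 as threshold. A gene silent in 1 group could meet this minimum through the other group alone, which fixes the sign of its difference. The pseudocount understates changes of low genes. On simulated data, 45 of 100 genes changed 2-fold and 93 of 100 changed 4-fold were recovered over 12480 genes, with 8 false calls. The changed genes were drawn only from those above a set mean level, with independent normal noise and an equal shift in every high library. These shares therefore do not apply to low genes or to genes uneven within a group. Library measures were compared by two-sided exact permutation over 924 splits (462 for RNA integrity). Libraries are pools of separate mice. The members and the 26 lists were chosen with earlier results of these data known. Genes were named by rule: in either direction up to 15 that passed, by p, or the 5 smallest p where fewer than 5 passed; list members that passed and the 2 most abundant tested members of each list; and the 5 genes most like Atf3 by rank correlation; other genes were chosen after their values were seen, and some named by the rule are not reported here. Alternatives changed the pseudocount, filter, scaling, trend, weights, covariates, group size and the libraries included. Promoter sequences are from RefSeq.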

Additional observations from a re-analysis of the deposited data

Results flagged for a closer look

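In the 6 libraries of a group, the highest or lowest was looked at where its gap to the rest was wide for the group's range (Dixon's test, which chance alone passes in about 1 group in 20). Values are on the log2(FPKM + 1) scale, and no explanation was tested.

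Male 11, a low-Atf3 library, stood apart most often. It was low in Stat3 (4.42, others 6.05 to 6.56), Hspa8 (10.4, others 11.5 to 11.7), Gfra2 (3.93, others 6.20 to 6.62), Hspa5 (6.40, others 7.29 to 7.66), Mrgprd (4.54, others 7.03 to 8.34) and Hmgcs1 (5.97, others 8.27 to 8.58). It was high in Gadd45g (6.56, others 5.25 to 5.71), Hspb1 (6.08, others 4.43 to 4.89) and Cldn5 (0.168, others listed at 0). Its mean over ribosomal protein genes was 8.98 (others 7.35 to 7.90) and over mitochondrially encoded genes 8.37 (others 6.43 to 7.03). Without male 11 the number of genes called was 1, and Sprr1a had a difference of 7.22.

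Among the other low libraries, male 9 was at 7.56 in Paqr5 (others 7.02 to 7.19), female 10 at 4.40 in Trappc6b (others 5.06 to 5.32) and at 2.51 in Arid5a (others 3.51 to 4.07), and male 5 at 4.33 in Th (others 6.87 to 7.94) and at 1.52 in Bpgm (others 3.06 to 3.76).

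Among the high libraries, male 4 was at 0.295 in 1810020O05Rik (others 1.16 to 1.45), at 9.90 in Txn1 (others 9.13 to 9.27) and at 8.21 in the mean of ribosomal protein genes (others 7.74 to 7.88). Female 7 was at 5.03 in Pvalb (others 1.59 to 2.83), and female 5 at 3.37 in H2-Ab1 (others 0 to 0.915).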

How the results depend on the processing

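Sprr1a passed in 26 of the 28 alternatives that gave it a value, with a difference of 4.76 to 9.41 and an adjusted p (limma) of 4.33e-07 to 1.00. It did not pass with 9 against 9 libraries or in female libraries alone (6.54, adjusted p = 0.143), and fell under the expression filter in male libraries alone. The count of genes called was 2 with a mean FPKM of at least 5, 18 with array quality weights, 8 with 4 against 4, 0 with 9 against 9, 16 in the regression over 18 libraries, 2 with 6 against 6 of all 22, 0 in male and 3 in female libraries alone, and 1 to 7 when 1 library was left out. Of 93 other named genes that were followed through the alternatives, 20 passed under at least 1. The sex interaction called 1 gene with a pseudocount of 0.01 (Pomt1) and 1 with no filter (Sprr2f). Scaling moved the split at unadjusted p under 0.05 from 697 positive and 206 negative to 483 and 381 with quantile normalisation and 514 and 297 with median-of-ratios scaling. The median of the immediate early list was 0.065 with 9 against 9, that of the injury transcription factors 0.050 with 6 against 6 of 22, and that of the regeneration effectors 1.46 with 4 against 4 and 0.72 to 1.46 over all 29 alternatives. Over these the median of the p53 targets ran from 0.088 to 0.52, moving by more than the spread in 5, and that of the NF-kB and inflammatory genes from 0.22 to 0.70, moving in 4. The difference in uniquely mapped share was -2.73 points with 4 against 4 and -0.82 with 9 against 9. The cause of these changes was not tested, beyond the fewer libraries some settings hold. The fit with RNA integrity left out male 8. High and low libraries share a replicate number in 3 male and female pairs (5, 8 and 9). Over these 6 libraries, a choice made after seeing the data, 2 genes were called with the number as a replicate block (Sprr1a and Hspb1) and 3 without it, where Ndfip1 was added. The deviations of same-numbered male and female libraries from their sex means correlated at -0.16 to 0.28 over 11 numbers, and 1 of 11 male libraries correlated best with its own number, so the numbers were not taken as pairs. Depth behind an FPKM value is known only per library, so no counting error is given.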

Other observations

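Not every gene that went with Atf3 was quiet in the 6 between libraries. Male 7, at 7.25 FPKM of Atf3, held 392.02 FPKM of Ndfip1, 27.4 of Jun and 40.2 of Camk1, inside the range of the high-Atf3 libraries, and 50.8 of Xbp1 and 14.6 of Creld2, above it. In the same library Sprr1a was at 0.554, Ecel1 at 0.0503, Gpr151 and Cckbr were listed at 0, and Fgf3 was at 0.0199 FPKM. Female 1 was alike, with 182.6 FPKM of Ndfip1, 21.3 of Jun and 34.6 of Xbp1 beside 0.275 of Sprr1a and 0.0170 of Ecel1. Male 4 showed the converse, with 551.5 FPKM of Sprr1a and 6493 of Gal beside 56.7 of Ndfip1 and 10.2 of Jun. The libraries were picked after their values were seen, and whether these are separate sets of genes was not tested.

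Ccl21a was at 225.7 FPKM in male 7 and 107.4 in male 3, both between libraries. Among those of the 18 libraries that had an RNA integrity number, theirs were the lowest (5.5 and 5.2). The high-Atf3 libraries ran from 17.7 to 110.0 FPKM, the highest being male 8, which had no RNA integrity number. Near-identical copies of the gene leave its level uncertain, and a link to RNA integrity was not tested.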
